A study of Homo sapiens with 5 samples.

Results

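The genes described here are 50 components of the machinery that copies nuclear DNA, measured in 5 established human cell lines of pancreatic origin, namely L3.6, PANC1, SU86.86, HPAF1 and HPDE. The members were taken by name: origin recognition, licensing, helicase, polymerase, clamp, single-strand binding, Okazaki fragment and chromatin assembly genes. All 50 had at least 1 probe set carrying a single gene symbol, the brightest on average was used for each, and all 50 were among the 14894 of 19775 genes that passed the filter on low values. Total RNA of each line was hybridised to 1 Affymetrix expression array. The lines are untreated and differ by their origin, and the labels put all of them under pancreatic cancer. L3.6, PANC1, SU86.86 and HPAF1 are known in the field as carcinoma lines, while HPDE is known there as immortalised non-tumour duct epithelium. The labels name neither a clone nor a way of immortalisation for HPDE, and they refer culture of all lines to the ATCC protocol. There was no replicate culture, so a value of a line has no error of its own, and the number of arrays limits the precision of every comparison.

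Replication is prepared in the G1 phase, when the origin recognition complex, CDC6 and CDT1 load the ring of MCM2 to MCM7 onto DNA. In S phase CDC45 and the GINS complex join this ring to form the active helicase. DNA polymerase alpha and primase then lay down primers, polymerases epsilon and delta extend them on the sliding clamp PCNA, and FEN1 and LIG1 join the pieces of the lagging strand. Many of these genes are transcribed towards S phase under E2F transcription factors, so their summed level in a culture depends both on how many cells are cycling and on the transcript per cell. In bulk RNA a smaller share of cells in S phase and less transcript per cell cannot be told apart.

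Levels are given as log2 of the deposited intensity plus 71.1, and differences are on the same log2 scale. A difference of 1 is a 2-fold change on this scale, which understates the fold of dim genes. Levels are compared between lines within a gene and never between genes, since probe sets differ in brightness. Median intensity was 137 to 143 on the arrays. Of 20 listed ribosomal protein genes 12 were measured, 0 of them stood at least 2-fold from the other lines in any line, and their median difference lay between -0.10 and 0.10. All 5 epithelial markers were above the filter level in all 5 lines. Their summed level was highest in HPAF1 (69.9) and lowest in PANC1 (55.01), with SU86.86 (67.8), L3.6 (62.9) and HPDE (62.6) between, and with a median difference from the other lines of -2.21 in PANC1 and 1.73 in HPAF1. HPAF1 was thus the high line for these markers and the low line for most replication genes. Of the other cell types, 0 of 3 measured acinar markers were above it in any. PTPRC, the common leukocyte antigen, and the endothelial receptors CDH5 and KDR were below it throughout. Above it were 2 to 4 of 6 fibroblast markers, 3 to 4 of 6 leukocyte markers, 2 of 5 endothelial and 1 of 2 erythroid markers in each line. The summed level of the leukocyte markers was 48.7 in HPAF1 and 45.5 to 46.0 elsewhere, with CD14 of monocytes at 8.72 in HPAF1, and that of the fibroblast markers was 51.6 in L3.6 and 48.0 to 49.5 elsewhere, with COL1A2 at 9.91 in L3.6. The part of any of these marker lists in the results below was not tested.

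Most replication genes were lowest in HPAF1 and highest in L3.6 or PANC1. HPAF1 held the lowest level of 32 of the 50 members and HPDE of 12, while PANC1, SU86.86 and L3.6 held 1, 2 and 3. Over all genes tested these lines held the lowest level of 22.3%, 22.7%, 17%, 23.6% and 14.4%. L3.6 held the highest level of 24 members, PANC1 of 15, HPDE of 6, SU86.86 of 4 and HPAF1 of 1. The matching shares over all genes were 19.4%, 20.2%, 22%, 14.8% and 23.7%. For 35 of 50 members (70.0%) HPAF1 and HPDE both lay below each of the other 3 lines, against 13.5% of all genes. This pair of lines was noticed after the levels were seen, and the count is a description with no test.

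The members were also spread more widely across the lines than genes in general, which were not matched to them for level. Genes in general include dim ones, whose range is made smaller by the added constant. The median distance between the highest and the lowest line was 1.65 for the members, or 3.13-fold, and 0.85, or 1.80-fold, for all genes. A range of at least 2-fold was found for 41 of 50 members (82.0%), against 42.4% of all genes. At least 4-fold was reached by 17 of 50 (34.0%), against 13.6% of all genes. The widest member was MCM10, a factor that activates the loaded helicase, with a range of 3.68 or 12.8-fold, its lowest level being below the filter level. The narrowest was PRIM2, the large subunit of primase, with a range of 0.12. It was read by 1 probe set, and 4 others that carry several symbols were not used. On 9 spike-in controls the median standard deviation between arrays was 0.10, a measure of spread that is not comparable with a range.

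**Figure D1:**
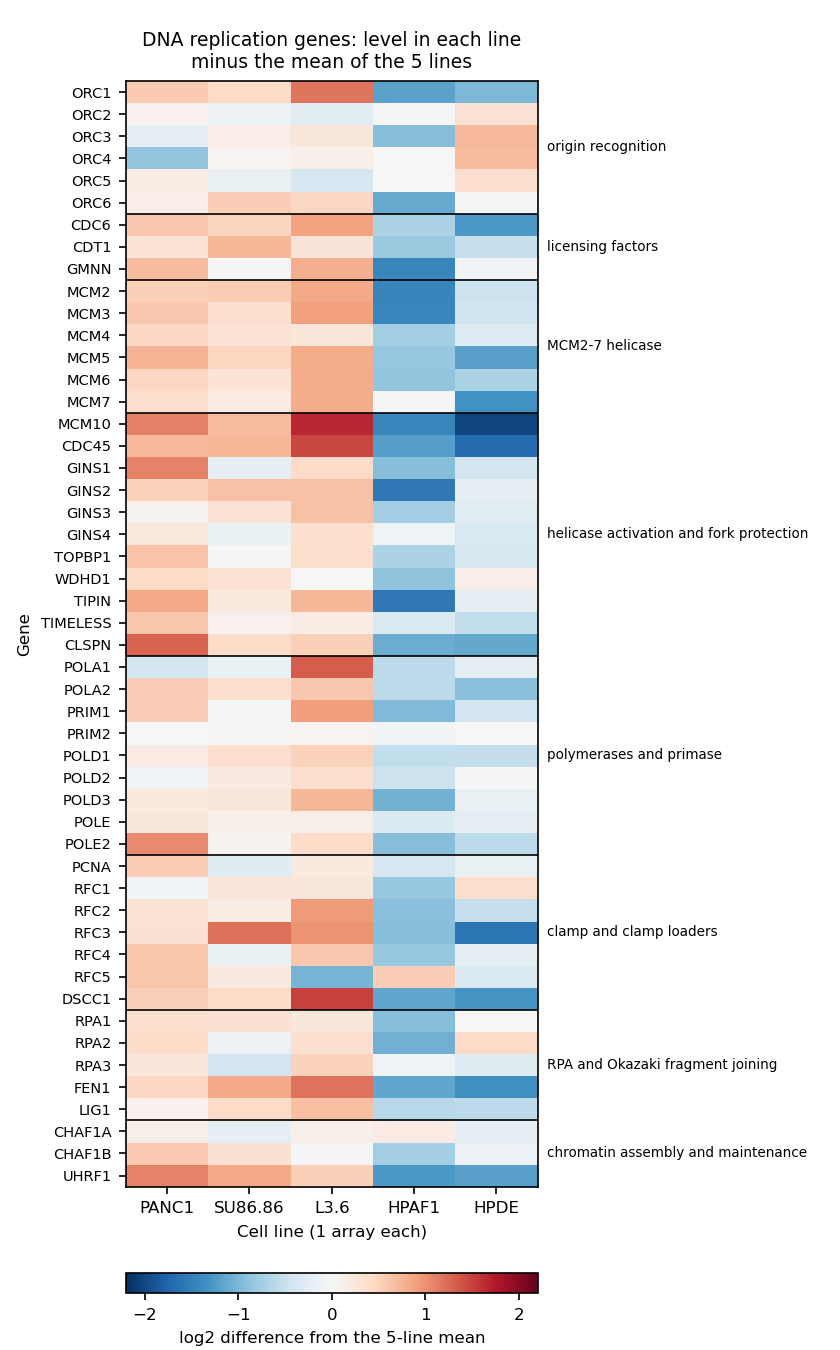
Heat map of 50 replication genes (vertical axis, grouped by role) in 5 cell lines (horizontal axis, 1 array each), coloured by the log2 difference from the gene's mean over the lines. Most genes are below their mean in the HPAF1 and HPDE columns, with MCM10 and CDC45 lowest in HPDE, while ORC3, ORC4 and RFC5 run differently.

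Set against the mean of the other 4 lines, HPAF1 was the line with most replication genes lower. In HPAF1 28 of 50 members were at least 2-fold lower and 0 were higher, against 6.3% and 6.96% of all genes, and the median difference of the members was -1.05 against -0.01 for all genes. HPDE had 12 members lower and 0 higher, against 5.57% and 6.48%, with a median of -0.41. In the other direction L3.6 had 15 members higher and 1 lower, against 2.99% and 4.72%, with a median of 0.64. PANC1 had 6 higher and 1 lower, against 5.38% and 5.54%, with a median of 0.57. SU86.86 had 3 higher and 0 lower, against 5.29% and 2.59%, with a median of 0.32, so its count was close to that of all genes. The median over all genes lay between -0.06 and 0.02 in the 5 lines. The 5 contrasts share their arrays and are not independent of each other.

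By limma's adjusted p, with Benjamini-Hochberg adjustment over 14894 genes, 0 members passed 0.05 in any line. The share of all genes that passed was 0.242% in HPAF1, 0.0269% in HPDE, 0.0269% in PANC1, 0% in L3.6 and 0% in SU86.86. The smallest limma adjusted p among the members was 0.198, for RPA1 in HPAF1, and in HPDE it was 0.401, for MCM7. At an unadjusted limma p under 0.05 there were 14 members in HPAF1, against 10.1% of all genes, and all 14 were lower there. They were ORC3, ORC6, GMNN, MCM2, MCM3, MCM4, GINS2, WDHD1, TIPIN, POLD3, RFC1, RPA1, RPA2 and CHAF1B. The count was 1 in PANC1 (ORC4), 0 in SU86.86, 2 in L3.6 (POLA1 and RFC5) and 1 in HPDE (MCM7), against 5.56%, 3.74%, 3.37% and 8.23% of all genes. Each fit rests on 3 residual degrees of freedom and on the spread between different lines, and an exact permutation of 1 line against 4 could not give a p below 0.2.

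Because each mean of the other lines contains the lines at the extremes, several of these counts depended on 1 line. Without L3.6 the members at least 2-fold higher in PANC1 numbered 16. Without HPAF1 the members higher in L3.6 numbered 8, the median for PANC1 was 0.30 and the median for HPDE was -0.75. SU86.86 had 9 members higher without L3.6, 7 without PANC1, and 1 without HPAF1 or without HPDE. The count lower in HPAF1 lay between 23 and 34 with any other line left out.

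**Figure D2:**
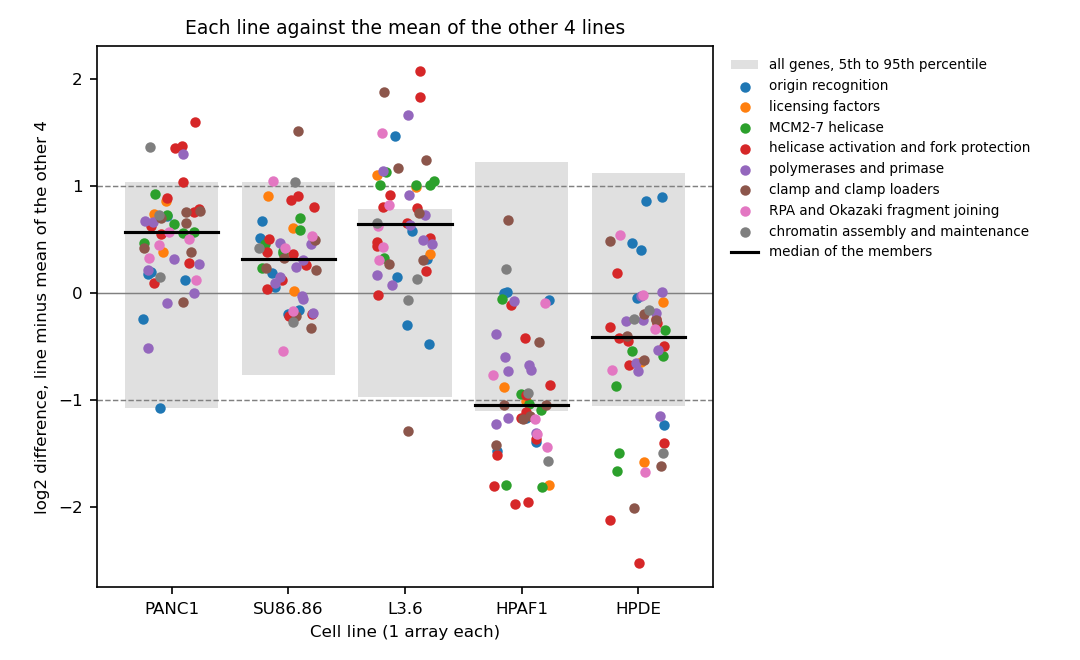
Log2 difference of each of 50 replication genes (points, coloured by role) between a line and the mean of the other 4 lines, for 5 lines with 1 array each. Black bars are the medians of the members, grey boxes span the 5th to 95th percentile of all genes and dashed lines mark 2-fold. In HPAF1 the median bar lies at -1.05, in L3.6 at 0.64.

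Promoter sequence was available for 43 of the 50 members in the RefSeq table for GRCh38.p14, as 55 start sites. The 250 bases before each start were searched on both strands for the E2F-type words TTTGGCG or TTTCGCG or TTTCCCG or TTTGCCG, which can overlap each other. A word was found at 21 of 55 member start sites (38.2%), against 7.33% of all 35116 start sites in the table and 9.62% of those of genes above the level filter. By gene the share was 19 of 43 members (44.2%), against 12.9% of the genes above the filter. The CCAAT box, searched likewise on both strands, was found at 31 of 55 member start sites (56.4%) and at 32.0% of all. At 18 start sites of mitotic genes, a list described further below, the shares were 83.3% for the CCAAT box and 22.2% for E2F-type words. The stretches below are shown for members described later, in lower case with E2F-type words in capitals, read 5′ to 3′ on the strand of the gene. For CDC6 (chr17:40287779-40287878, plus strand), CDT1 (chr16:88803689-88803788, plus), POLA2 (chr11:65261862-65261961, plus) and RFC3 (chr13:33818049-33818148, plus) they are the last 100 bases before the annotated start. For MCM6 (chr2:135876504-135876603, minus) they run from 160 to 61 bases before it, where the words lie in overlapping pairs.
CDC6: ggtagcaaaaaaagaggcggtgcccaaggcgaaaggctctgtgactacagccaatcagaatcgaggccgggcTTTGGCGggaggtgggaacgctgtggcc
CDT1: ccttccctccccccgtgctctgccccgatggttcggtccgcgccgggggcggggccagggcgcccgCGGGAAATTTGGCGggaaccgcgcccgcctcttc
MCM6: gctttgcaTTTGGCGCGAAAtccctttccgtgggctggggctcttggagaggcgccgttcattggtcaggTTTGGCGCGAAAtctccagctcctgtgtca
POLA2: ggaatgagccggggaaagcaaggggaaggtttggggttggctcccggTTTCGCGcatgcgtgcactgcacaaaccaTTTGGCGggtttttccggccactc
RFC3: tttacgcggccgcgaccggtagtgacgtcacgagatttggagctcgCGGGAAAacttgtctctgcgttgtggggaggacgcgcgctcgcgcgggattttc

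These 5 genes were all lower in both HPAF1 and HPDE than in each of the other 3 lines. They were picked by hand, so that shared pattern is not a result about the words. ORC3, PCNA, POLA1 and RFC1 also have a word and did not show the pattern. MCM10, the member with the widest range, was lower in HPAF1 and HPDE as well, while ORC5 was highest in HPDE. MCM10 and ORC5 have none of the words in the 250 bases searched. Their last 100 bases before the start, at chr10:13161458-13161557 (plus strand) for MCM10 and chr7:104208014-104208113 (minus strand) for ORC5, are given for comparison.
MCM10: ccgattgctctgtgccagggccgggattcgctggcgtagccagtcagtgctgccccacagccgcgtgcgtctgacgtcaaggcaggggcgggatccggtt
ORC5: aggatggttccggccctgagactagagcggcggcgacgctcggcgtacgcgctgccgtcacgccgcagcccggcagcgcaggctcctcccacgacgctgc

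Among the 19 members with a word, 15 had HPAF1 and HPDE both below the other 3 lines and the median range was 1.97. Among the 24 without, the count was 16 and the median range 1.43. The difference between these sets was not tested, and a matching word is a description of the sequence, not a measured site.

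The 6 subunits of the origin recognition complex, which marks where replication may begin, did not follow a single pattern. ORC1, the subunit known for cell-cycle regulation, stood at 9.20 in PANC1, 9.03 in SU86.86, 9.79 in L3.6, 7.43 in HPAF1 and 7.63 in HPDE. HPAF1 and HPDE were thus below the filter level and the other 3 lines above it, a range of 5.14-fold that understates the fold, the low levels being near background. ORC6, which is needed to bring helicases to the complex, was 10.35, 10.74, 10.66, 9.09 and 10.16 in the same order of PANC1, SU86.86, L3.6, HPAF1 and HPDE. Here HPAF1 alone stood apart, with a difference of -1.39 from the mean of the others (SE 0.29, limma adjusted p = 0.223). ORC3, a subunit of the complex core, was 10.36, 10.70, 10.81, 9.62 and 11.27 in that order, with HPDE highest and HPAF1 lowest.

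ORC2, ORC3, ORC4 and ORC5 were each highest in HPDE, and the only other members highest there were RFC1 and RPA2. ORC2 and ORC5 varied little, between 9.24 and 9.80 and between 9.71 and 10.46. ORC4 reached 11.42 in HPDE and lay between 10.74 and 10.85 in HPAF1, SU86.86 and L3.6. PANC1, at 9.87, was the low line for ORC4, with a difference of -1.07 from the others (SE 0.34, limma adjusted p = 0.740). All 6 subunits were lower in HPAF1 than in HPDE, by 0.20 for ORC1 up to 1.65 for ORC3 in size.

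All 3 licensing genes were lower in HPAF1 and in HPDE than in each other line. CDC6, the ATPase that recruits helicases to origins, stood at 10.83 in PANC1, 10.72 in SU86.86, 11.12 in L3.6, 9.54 in HPAF1 and 8.97 in HPDE. CDT1, its partner in helicase loading, was 9.12, 9.54, 9.11, 8.01 and 8.30 in that order. Both genes separated HPAF1 and HPDE from the rest by more than the distance among PANC1, SU86.86 and L3.6. GMNN encodes geminin, which binds CDT1 and blocks repeated licensing, and read 11.48, 10.81, 11.59, 9.36 and 10.73. In GMNN only HPAF1 stood clearly apart (difference -1.79, SE 0.43, limma adjusted p = 0.270), and HPDE lay within 0.08 of SU86.86.

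The 6 genes of the MCM ring, the core of the replicative helicase, all placed HPAF1 and HPDE below PANC1, SU86.86 and L3.6. MCM2 stood at 12.20 in PANC1, 12.24 in SU86.86, 12.53 in L3.6, 10.23 in HPAF1 and 11.22 in HPDE. MCM3 was 11.37, 11.15, 11.69, 9.35 and 10.35 in that order. Both were lowest in HPAF1, with differences of -1.81 (SE 0.54, limma adjusted p = 0.359) for MCM2 and -1.79 (SE 0.54, limma adjusted p = 0.363) for MCM3. MCM4 and MCM6 had the same lowest line, with levels from 10.46 to 11.66 and from 10.38 to 12.06.

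MCM7 and MCM5 had HPDE as the lowest line instead. MCM7 was 11.83 in PANC1, 11.64 in SU86.86, 12.26 in L3.6, 11.40 in HPAF1 and 10.12 in HPDE. For MCM7 the differences of HPAF1 from SU86.86 and L3.6 were -0.23 and -0.86, and PANC1 exceeded HPAF1 by 0.42. HPDE was the low line for MCM7, with a difference of -1.67 from the mean of the others. MCM5 lay between 10.73 and 11.07 in L3.6, PANC1 and SU86.86, at 9.43 in HPAF1 and at 9.06 in HPDE. L3.6 was at least 2-fold above the mean of the other lines for 5 of the 6 subunits, all but MCM4. Over all genes the share was 2.99%. That mean includes the low lines HPAF1 and HPDE. Set against PANC1 alone or SU86.86 alone, L3.6 was at least 2-fold higher for 0 of the 6 subunits and lower for 0. Transcripts of this ring did not all differ in the same direction between HPAF1 and HPDE. MCM7 was higher in HPAF1 than in HPDE by 1.29, while MCM2 differed in the opposite direction, by -0.99. These differences rest on 1 array per line and were not tested, and protein was not measured.

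Of the genes that switch the loaded helicase on, MCM10 and CDC45 had the widest ranges of all members on the probe sets used. MCM10 stood at 10.27 in PANC1, 9.87 in SU86.86, 10.83 in L3.6, 7.73 in HPAF1 and 7.15 in HPDE. CDC45, a subunit of the active helicase, was 10.29, 10.30, 11.04, 8.36 and 7.88 in that order. For both genes HPAF1 and HPDE lay far below the other lines and L3.6 was highest. HPDE differed from the other lines by -2.52 for MCM10 (SE 1.22, limma adjusted p = 0.699), with HPAF1 at its low level among the lines it was set against. With 2 other MCM10 probe sets above the filter the ranges were 2.31 and 2.34, and HPAF1 and HPDE were again the low lines. HPDE was lowest where the range was 2.31, and HPAF1 where it was 2.34.

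The GINS complex, the third part of the active helicase, was less uniform. GINS2 was 10.62 in PANC1, 10.76 in SU86.86, 10.75 in L3.6, 8.55 in HPAF1 and 9.89 in HPDE. HPAF1 was 3.88-fold lower than the mean of the others (-1.96 on the log2 scale, SE 0.40, limma adjusted p = 0.218). GINS1 was highest in PANC1, at 11.55 against 9.53 to 10.88 in the other lines. GINS3 ranged from 8.49 in HPAF1 to 9.89 in L3.6, and GINS4 only from 8.46 in HPDE to 9.14 in L3.6.

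Of the genes that protect and pace the fork, TIPIN separated HPAF1 most. TIPIN, which with TIMELESS holds helicase and polymerase together, was 11.15 in PANC1, 10.54 in SU86.86, 11.05 in L3.6, 8.74 in HPAF1 and 10.12 in HPDE. Its difference of -1.98 in HPAF1 (SE 0.46, limma adjusted p = 0.257) was the most negative of all members in that line, a 3.93-fold difference. TIMELESS itself ranged only from 9.68 in HPDE to 10.83 in PANC1. CLSPN encodes claspin, which relays the replication checkpoint to CHK1, and was 9.73, 8.86, 8.99, 7.37 and 7.34 in the order of PANC1, SU86.86, L3.6, HPAF1 and HPDE. It was below the filter level in HPAF1 and HPDE and highest in PANC1. TOPBP1, which helps assemble the helicase and activates the checkpoint kinase ATR, was 9.99 in HPAF1 and 10.32 to 11.31 elsewhere. WDHD1, which ties polymerase alpha to the helicase, was 7.93 in HPAF1 and 8.80 to 9.26 in the other lines.

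**Figure D3:**
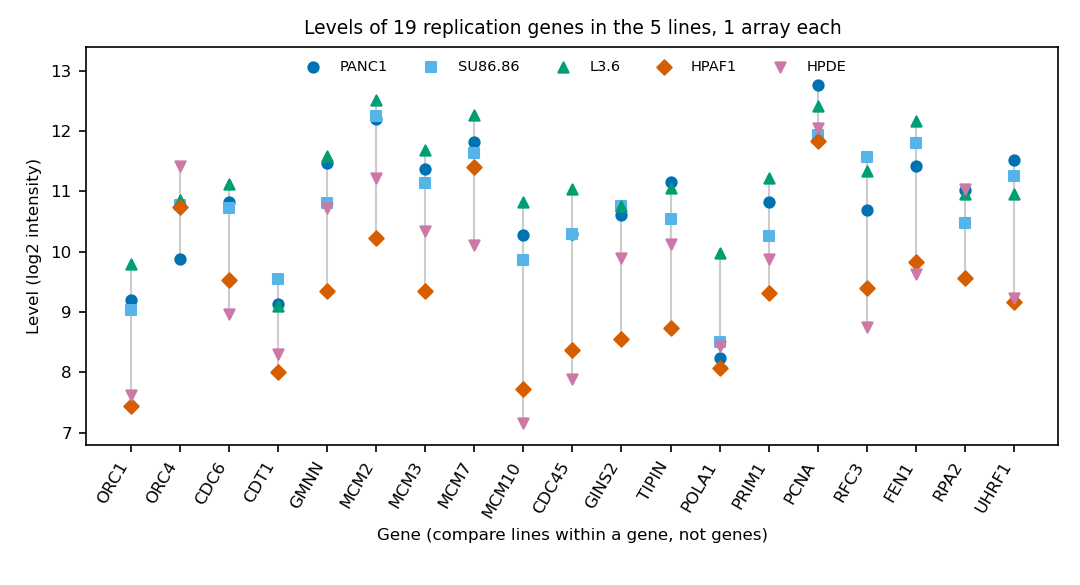
Levels (log2 intensity, vertical axis) of 19 replication genes (horizontal axis) in 5 lines, 1 array each, with a grey line joining the extremes of a gene. For CDC6, MCM10, CDC45, RFC3 and FEN1 HPDE is the lowest point, for GMNN, MCM2, GINS2, TIPIN and RPA2 HPAF1 is, and POLA1 shows L3.6 alone above the rest.

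Of the 9 polymerase and primase genes 0 reached a 4-fold range, with POLE2 closest at 3.92-fold. Their median range was 1.51, against 1.65 for all members. POLE2, the accessory subunit of polymerase epsilon, was 11.09 in PANC1, 10.13 in SU86.86, 10.45 in L3.6, 9.12 in HPAF1 and 9.47 in HPDE. PRIM1, the catalytic subunit of primase, was 10.83, 10.26, 11.22, 9.32 and 9.88 in that order. HPAF1 was lowest for both and for 8 of the 9 polymerase and primase genes, while POLA2 was lowest in HPDE at 9.11.

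POLA1, the catalytic subunit of polymerase alpha, followed a different order. It was 8.23 in PANC1, 8.49 in SU86.86, 9.98 in L3.6, 8.07 in HPAF1 and 8.44 in HPDE. L3.6 was thus alone above 4 lines that lay within 0.42 of each other, with a difference of 1.67 (SE 0.25, unadjusted p = 0.0015, limma adjusted p = 0.653). POLA1 was read by 1 probe set, so no other measurement of it was available. POLD3, a subunit of polymerase delta, was 8.53 in HPAF1 and 9.43 to 10.31 in the other lines. POLE and POLD2, the catalytic subunit of polymerase epsilon and an accessory subunit of polymerase delta, had ranges of 0.56 and 0.85, and POLD1, the catalytic subunit of polymerase delta, from 8.43 to 9.47.

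PCNA, the sliding clamp and a common proliferation marker, differed less than the proteins that load it. PCNA was 12.76 in PANC1, 11.94 in SU86.86, 12.42 in L3.6, 11.84 in HPAF1 and 12.05 in HPDE. HPDE was thus above SU86.86 for PCNA, and the whole range was 0.92. RFC3, a small subunit of the clamp loader, was 10.69, 11.56, 11.34, 9.41 and 8.74 in that order, with SU86.86 highest and HPDE lowest. Another RFC3 probe set gave the same order of the 5 lines. RFC2, also a small subunit, was 10.78, 10.64, 11.41, 9.55 and 9.97, with L3.6 highest and HPAF1 lowest. RFC4, of the same kind, was lowest in HPAF1 at 10.49, while RFC1, the large subunit, was 9.25 in HPAF1 and 10.03 to 10.48 elsewhere.

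DSCC1, a subunit of the alternative loader that acts in sister chromatid cohesion, was 9.68 in PANC1, 9.56 in SU86.86, 10.67 in L3.6, 8.03 in HPAF1 and 7.87 in HPDE. This is a 6.97-fold range with L3.6 on top, but it rests on a probe set that can match several transcripts. The same holds for 22 of the 50 members, DSCC1 included. Among them are CDC6, CDT1, GMNN, ORC6, MCM2, MCM7, MCM10, CDC45 and FEN1. The other DSCC1 probe set read between 7.77 and 7.95 in the 5 lines, near the filter level of 7.72, and showed no such difference.

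In the group that coats single strands and joins Okazaki fragments, RPA1 and RPA2 set HPAF1 apart and FEN1 set both low lines apart. RPA1, the large subunit of replication protein A, was 11.76 in PANC1, 11.74 in SU86.86, 11.65 in L3.6, 10.46 in HPAF1 and 11.39 in HPDE. RPA2, the subunit phosphorylated on replication stress, was 11.02, 10.48, 10.96, 9.56 and 11.05. In HPAF1 RPA1 differed from the others by -1.17 (SE 0.22, limma adjusted p = 0.198) and RPA2 by -1.32 (SE 0.29, limma adjusted p = 0.241), whereas HPDE had the highest RPA2 level. FEN1, the flap nuclease, was 11.43, 11.81, 12.17, 9.82 and 9.63, so HPAF1 and HPDE were both at least 1.6 below the other lines. LIG1, the ligase of Okazaki fragments, was 8.25 in HPAF1 and 8.28 in HPDE and 8.95 to 9.51 elsewhere, and RPA3 varied from 11.20 to 12.13.

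Of the genes that restore chromatin behind the fork, UHRF1 differed most. UHRF1, which brings the maintenance DNA methylase to new DNA, was 11.52 in PANC1, 11.26 in SU86.86, 10.95 in L3.6, 9.17 in HPAF1 and 9.23 in HPDE. CHAF1B, a subunit of the chromatin assembly factor CAF-1, was 9.55, 9.30, 8.92, 8.22 and 8.84 in that order. For UHRF1 the groups of HPAF1 with HPDE and of the other 3 lines were 1.72 apart at their nearest, while for CHAF1B L3.6 and HPDE differed by only 0.08. CHAF1A, the large subunit of CAF-1, ranged from 10.05 to 10.45 on the probe set used.

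For some members the choice of probe set decided the pattern. Of the 50 members 23 had several probe sets above the level filter, 30 further probe sets in all, and 22 of these 30 had the same lowest line as the one used. RFC5, a small clamp loader subunit, was 9.53 in L3.6 and 11.10 in HPAF1 on the probe set used, but 11.21 in L3.6 and 9.17 in HPAF1 on another, and 10.57 and 8.76 on a further probe set. On those L3.6 was highest and HPAF1 lowest for RFC5, the same extreme lines as for RFC2. CHAF1A was 7.93 in HPAF1 and 8.58 in HPDE on another probe set, against 9.19 to 9.86 in the other lines, and a further probe set gave 8.71 and 9.51 against 10.08 to 10.70. GINS2 and POLD3 each had another probe set with a range of only 0.21 and 0.37. Where the probe set used differed at least 2-fold in HPAF1, 12 of 14 further probe sets had the same direction and 9 of them also reached 2-fold. For HPDE these counts were 8 of 9 and 7, for L3.6 8 of 11 and 7, for PANC1 3 of 3 and 1, and for SU86.86 2 of 2 and 2.

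**Figure D4:**
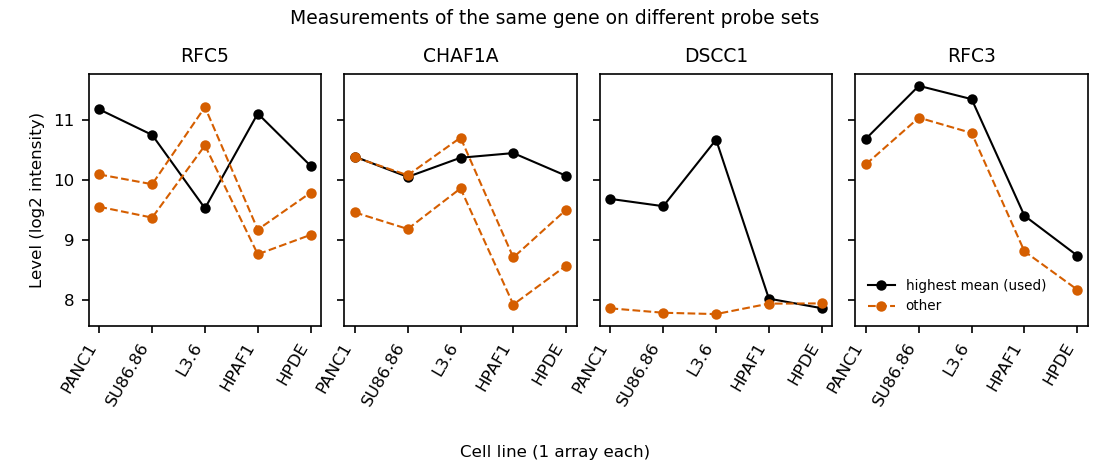
Level (log2 intensity, vertical axis) of RFC5, CHAF1A, DSCC1 and RFC3 in 5 lines (horizontal axis, 1 array each) on the probe set used (black, highest mean) and on others above the filter (orange, dashed). The RFC5 curves cross, CHAF1A is flat only on the probe set used, DSCC1 is flat on the other, and both RFC3 curves run together.

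Against HPDE, PANC1, SU86.86 and L3.6 had higher levels of most replication genes and HPAF1 did not. These differences have 1 array on each side and were described by size alone. Members at least 2-fold higher than in HPDE numbered 20 in L3.6, 18 in PANC1 and 14 in SU86.86, against 6.55%, 8.47% and 8.44% of all genes. Members at least 2-fold lower numbered 0, 1 (ORC4) and 0, against 8.59%, 9.26% and 7.72%. The median differences of the members were 0.86, 0.78 and 0.53, and those of all genes 0.03, 0.03 and -0.03. The widest were MCM10 in L3.6 (3.68) and PANC1 (3.12) and RFC3 in SU86.86 (2.82). In HPAF1 only MCM7 was at least 2-fold higher than in HPDE and 8 members were lower, against 7.77% and 9.27% of all genes. The 4 differences share the HPDE array.

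Between HPAF1 and HPDE the number of members at least 2-fold apart, given above, was close to the share over all genes, so the genes named here describe these arrays only. HPAF1 was below HPDE for 35 of 50 members and above it for 15, against 48% and 52% of all genes, with a median difference of -0.34. The 8 members at least 2-fold lower in HPAF1 were ORC3 (-1.65), RPA2 (-1.49), TIPIN (-1.38), GMNN (-1.37), GINS2 (-1.34), RFC1 (-1.23), ORC6 (-1.07) and WDHD1 (-1.04). Members higher in HPAF1 included MCM7 (1.29), RFC3 (0.66), MCM10 (0.57), CDC6 (0.56) and CDC45 (0.48), while RFC5 (0.87) went the opposite way on its other probe sets. MCM10 stood at 7.73 in HPAF1, at the filter level of 7.72, and at 7.15 in HPDE, below it. On another MCM10 probe set HPAF1 and not HPDE was the lowest line. Mitotic genes, which act in the later cell-cycle phase, were all in the other direction. All 20 of them were higher in HPAF1 than in HPDE, 8 by at least 2-fold, with a median difference of 0.78 and the widest at 2.72 for KIF20A, a kinesin of cytokinesis. HPDE held the lowest level of all 20 mitotic genes, against 12 of 50 replication genes. Whether the replication and mitotic lists differ between these lines was not tested.

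**Figure D5:**
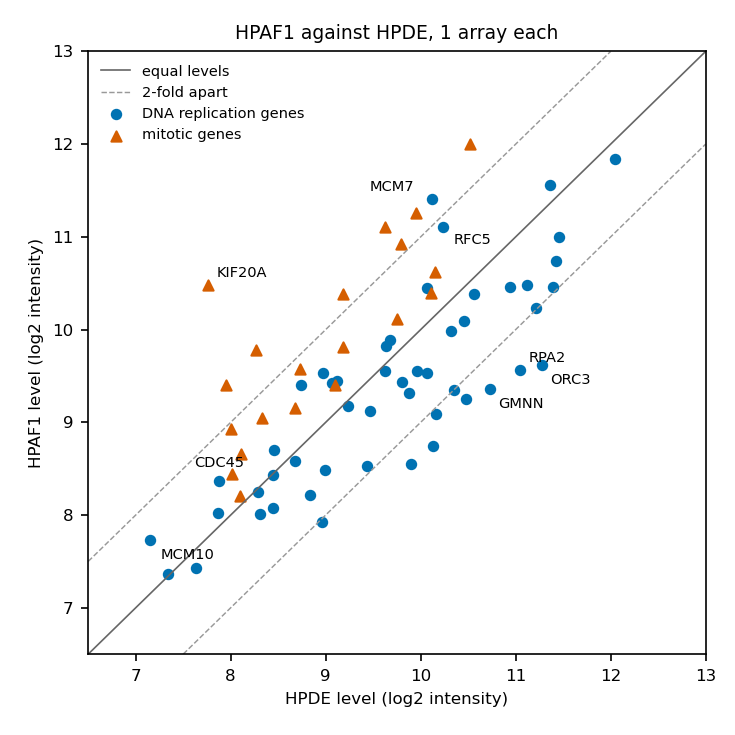
Level in HPAF1 (vertical axis) against level in HPDE (horizontal axis), both log2 intensity from 1 array each, for 50 replication genes (blue circles) and 20 mitotic genes (orange triangles), with the line of equal levels and dashed lines at 2-fold. All triangles lie above the line of equal levels, while 35 circles lie below it.

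In the remaining pairs of carcinoma lines HPAF1 was the low line wherever it took part. These pairs share the 1 HPAF1 array already set against the other lines above, so they are not independent of that result. PANC1 exceeded HPAF1 at least 2-fold for 31 members and was lower for 0, against 10% and 9.52% of all genes, with a median of 1.27. HPAF1 was lower than SU86.86 for 29 members and higher for 0, against 9.21% and 6.83%, and lower than L3.6 for 35 and higher for 1 (RFC5), against 7.77% and 9.03%. PANC1, SU86.86 and L3.6 differed little from each other. PANC1 was at least 2-fold above SU86.86 for 1 member (GINS1) and below for 0, against 5.26% and 7.12%. It was above L3.6 for 1 (RFC5) and below for 1 (POLA1), against 6.45% and 4.96%. SU86.86 was above L3.6 for 1 (RFC5) and below for 2 (POLA1 and DSCC1), against 7.26% and 3.37%.

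Other genes of the replication pathway, 52 measured of 55 listed, were lower in HPAF1 and HPDE as well, with exceptions in each. At least 2-fold lower were 19 in HPAF1 and 12 in HPDE, and higher were 2 (POLD4 and TOP1) and 1 (RBL2), with medians of -0.84 and -0.42. Over all genes 6.3% were lower in HPAF1 and 5.57% in HPDE, and 6.96% and 6.48% higher. PANC1 had 12 higher and 0 lower, against 5.38% and 5.54% of all genes, and L3.6 had 9 higher and 1 lower, against 2.99% and 4.72%. SU86.86 had 4 higher and 0 lower, against 5.29% and 2.59%, which is near the share over all genes. The counts of single pathway lists below are read against these same shares. By limma's adjusted p 0 of the 52 passed in any line, and at an unadjusted p under 0.05 there were 13 in HPAF1, 5 in HPDE, 2 in PANC1, 1 in L3.6 and 0 in SU86.86. The shares over all genes were 10.1%, 8.23%, 5.56%, 3.37% and 3.74%, so the counts in all lines but HPAF1 were near or below them.

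Among the kinases and factors that fire origins, 6 of 10 were at least 2-fold lower in HPAF1 and 2 in HPDE, against 6.3% and 5.57% of all genes. CCNE1 and CCNE2 encode cyclin E, the partner of CDK2 at S-phase entry. CCNE2 was 10.44 in PANC1, 9.67 in SU86.86, 9.97 in L3.6, 7.95 in HPAF1 and 8.13 in HPDE, and CCNE1 was 10.69, 10.73, 10.03, 8.34 and 9.06. Both cyclins were thus lowest in HPAF1, with HPDE next. CDC7, the kinase that activates the MCM ring, was 8.23 in HPAF1 and 9.55 to 10.42 in the other lines, HPDE among them at 10.01.

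The enzymes that supply deoxynucleotides included the widest ranges among the pathway genes. TYMS, thymidylate synthase, was 13.58 in PANC1, 12.30 in SU86.86, 12.50 in L3.6, 9.96 in HPAF1 and 8.69 in HPDE, a 29.8-fold range. RRM2, the regulated subunit of ribonucleotide reductase, was 13.21, 13.22, 13.34, 11.18 and 8.81, a 23.1-fold range. HPDE was at least 2-fold lower than the other lines for 6 of these 7 genes and HPAF1 for 3, against 5.57% and 6.3% of all genes, with medians of -1.56 and -0.97. In contrast to most members, RRM2, TK1 and TYMS were higher in HPAF1 than in HPDE, by 2.37, 1.56 and 1.28.

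Of 17 other fork, clamp and flap proteins, 4 were lower and 2 higher in HPAF1, against 6.3% and 6.96% of all genes, and 2 were lower in HPDE, against 5.57%. TOP2A, the topoisomerase that untangles copied DNA, was 12.14 in PANC1, 11.40 in SU86.86, 12.19 in L3.6, 10.05 in HPAF1 and 9.48 in HPDE. POLD4, the smallest subunit of polymerase delta, ran the other way, at 10.13, 10.55, 9.68, 12.08 and 10.16. HPAF1 was the high line for POLD4 by 1.95 (SE 0.36, limma adjusted p = 0.190), while it was the low line for POLD3 of the same polymerase.

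Among 7 histone chaperone and methylase genes 4 were lower in HPAF1 and 1 in HPDE, against 6.3% and 5.57% of all genes. ASF1B, a histone H3-H4 chaperone of dividing cells, was 10.40 in PANC1, 10.37 in SU86.86, 11.20 in L3.6, 8.80 in HPAF1 and 8.09 in HPDE, and NASP, which stores histones, was 11.94, 11.46, 12.27, 10.36 and 11.43. ASF1B was lowest in HPDE and NASP in HPAF1.

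Of the E2F and pocket protein genes 2 of 11 were lower in HPAF1, against 6.3% of all genes. In HPDE 1 was lower and 1 higher, against 5.57% and 6.48%, which is close to the share over all genes. E2F8, an E2F repressor of late S phase, was 9.36 in PANC1, 9.46 in SU86.86, 9.31 in L3.6, 7.14 in HPAF1 and 6.61 in HPDE. Its levels in HPAF1 and HPDE were below the filter level, so the fold is understated. RBL2, the pocket protein p130 of resting cells, was 8.79, 9.35, 9.48, 9.70 and 10.54 in that order. HPDE was the high line for RBL2 (difference 1.21, SE 0.38, limma adjusted p = 0.535) and the low line for E2F8. E2F1, an activator of replication genes, lay between 8.70 in HPAF1 and 9.52 in PANC1.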

How the data were processed

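Total RNA of 5 cell lines was measured on 1 array per line. The deposited values are linear intensity values for 54675 probe sets, and the steps by which the authors obtained them are not given in the sources used here. Probe sets were named from GEO's platform annotation, with 41037 of 41091 single-symbol probe sets updated through RefSeq (GRCh38.p14). The 62 control probe sets, 1801 with several symbols and 11721 without a name were not used. Values were transformed as log2(value + 71.1), the constant being the 25th percentile of positive values, with no further normalization. Per gene the brightest probe set on average was kept, and genes whose highest level reached the median over probe sets (intensity 140) were tested. A line's level was set against the average of the other 4 in limma 3.58.1 (R 4.3.3), two-sided, with Benjamini-Hochberg adjustment over 14894 genes and a threshold of 0.05. The fit was tested on simulated data with a narrower spread between arrays than most members show between these lines. That test therefore does not show what the fit can detect here. The p-values measure the spread between lines, not between cultures. Tables were summarised in Python 3.11.15 with pandas 2.3.3.

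The members and gene lists were chosen with earlier results of these data known, as were the roles, the pathway and mitotic lists, the ribosomal control and the cell type markers. Values in every line were given for the 3 members of each role with the widest range (2 in roles of 3), for MCM2, CDC6, CDT1, GMNN, ORC1, CDC45 and PCNA, and for the 2 widest genes of each pathway list. Other genes named were chosen after their values were seen. Alternatives covered the added constant, normalization, choice of probe set, level filter and leaving out each line. E2F-type words, searched in 250 bases before RefSeq start sites, were a description only.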

Additional observations from a re-analysis of the deposited data

How the results depend on the processing

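The limma count of 0 members held for every line under all 8 alternative settings and with each line left out. The 561 recomputed differences cover only named members at least 2-fold from the other lines at the main setting. Differences of that size can hardly turn in sign where the probe set stays the same. Of these 561, 558 kept their direction, with no limma call gained. They do not include RFC5 and CHAF1A, whose pattern depended on the probe set: on both of its others RFC5 turned in sign, from -1.29 to 1.47 and 1.38 in L3.6 and from 0.68 to -1.08 and -0.88 in HPAF1, and CHAF1A turned from 0.23 to -1.34 and -1.45 in HPAF1. DSCC1 turned in sign when probe sets open to several transcripts were dropped, to 0.10 in HPAF1, -0.12 in L3.6 and 0.10 in HPDE, its other probe set being flat. That setting measured 38 of the 50 members, and with fewer members the counts at least 2-fold lower were 18 in HPAF1, 7 in HPDE and 0 in PANC1, those higher were 9 in L3.6, and those higher than in HPDE were 7 in SU86.86 and 0 in HPAF1. Averaging a gene's probe sets gave medians of 0.41 in PANC1 and -0.85 in HPAF1, and 0 members were lower in PANC1 or in L3.6. SU86.86 had 6 members higher with log2(value + 16), 6 with no added constant and 1 after quantile normalization; the cause was not tested.

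With each other line left out, members lower in PANC1 numbered 0 to 1 and higher 5 to 16, with a median of 0.30 to 0.77. Members lower in HPAF1 numbered 23 to 34, with a median of -1.21 to -0.92. In SU86.86 members higher numbered 1 to 9, with a median of 0.11 to 0.51. In L3.6 those higher numbered 8 to 21, with a median of 0.39 to 0.90. In HPDE those lower numbered 11 to 16 and higher 0 to 1, with a median of -0.75 to -0.28. No paired analysis was possible because each line has 1 array and the lines share no pairing. Precision is limited by 1 array per line, and ORC1 and CLSPN in HPAF1 and HPDE, and MCM10 in HPDE, were below the filter level, so their folds are understated.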
